A study of Mus musculus with 18 samples.

Results

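The genes described here are 32 mouse genes of glycolysis and of pyruvate and lactate handling, out of 22997 nuclear genes in the count files. They were taken as a fixed list of enzymes and transporters, from glucose uptake to lactate export and the entry of pyruvate into mitochondria, and all 32 were found. They were read in single cells of wild-type C57BL/6 mouse embryos of embryonic day (E) 6.75 and E7.5, the days on which the epiblast gives rise to mesoderm and endoderm through the primitive streak. At E6.75 the embryos had been freed of their extraembryonic region and dissociated one by one, and cells were picked by hand into 6 libraries of 96 cells made with CEL-Seq2. At E7.5 the embryos had been cut below the chorion, so that extraembryonic mesoderm stayed with them, those of 1 or 2 litters were pooled, and cells were sorted by flow cytometry into 12 libraries of 96 wells made with mCEL-Seq2. Both protocols tag polyadenylated RNA with a cell barcode and a molecular identifier, so that 1 molecule is counted once. Stage, collection and protocol changed together and cannot be told apart. The labels do not say which libraries came from separate embryos or litters, so p-values between stages measure the spread between libraries. For cells compared within libraries, p-values measure how that difference varied from library to library.

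Glycolysis splits glucose into pyruvate. Glucose enters through facilitative transporters, is trapped by hexokinase, is committed to the pathway by phosphofructokinase, and yields ATP in the steps of phosphoglycerate kinase and pyruvate kinase. Pyruvate is then either reduced to lactate by lactate dehydrogenase and exported with a proton by monocarboxylate transporters, or carried into mitochondria and oxidised by the pyruvate dehydrogenase complex, which pyruvate dehydrogenase kinases switch off. Embryos around gastrulation are known for high glucose use and lactate output. Transcript levels do not measure flux through the pathway.

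Cells with at least 2000 nuclear transcripts were kept, which left 543 of 576 at E6.75 (85 to 96 per library) and 429 of 1152 at E7.5 (15 to 71 in each of the 11 libraries tested, with none in replicate 5). Median depth was 39298 transcripts per kept cell at E6.75 and 31173 at E7.5, and the kept cells of a library held 2918240 to 5486857 and 488326 to 2615333 transcripts. Levels are given as CPM, that is the transcripts of a gene per 1000000 nuclear transcripts in a library's or gate's summed cells. The tags come from transcript ends, so levels were not divided by gene length, and no order of levels between genes is drawn from them. In such sums, fewer cells of a type and less RNA per cell cannot be told apart. At E6.75, 34 kept cells carried at least 0.5% of their transcripts in 12 visceral endoderm markers and 21 had at least 3 of 8 extraembryonic ectoderm markers. At E7.5 these counts were 2 and 19. Both kinds of cell were left out before cells were gated by T, Mesp1, Foxa2 or Sox2, which left 488 and 408 cells.

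Over all kept cells, glucose transporters and several enzymes of the middle of glycolysis were higher at E7.5 than at E6.75. Hk2, Ldha and the lactate exporter Slc16a3 were lower, but none of these was called within the Sox2-only cells described below. With each cell thinned to 2000 transcripts the calls of all 3 lower genes were lost (Hk2 −0.48, adjusted p = 0.101; Ldha −0.10, 0.339; Slc16a3 −0.17, 0.610), as was that of Pkm (0.21, 0.0714). Across all kept cells, limma voom with Benjamini-Hochberg adjustment called 4264 of 9998 tested genes at an adjusted p under 0.05, which is 42.6%. Of the 32 genes, 29 passed the low-count filter, and 9 of them were higher and 7 lower at E7.5. Eno2 (neuronal enolase), Pdk2 (a pyruvate dehydrogenase kinase) and Mpc1 (a subunit of the mitochondrial pyruvate carrier) did not pass and ranged over the libraries from 0 to 8.20 CPM. The median log2 fold change of the 29 genes was 0.12, against 0.02 for all genes tested. Well-counted genes were called more often: of the 2500 tested genes with the highest mean level, 51.6% were called, and 12 of the 19 pathway genes among them were. The share of pathway genes called was therefore close to that of other genes of their level, and the results lie in which steps moved.

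**Figure D1:**
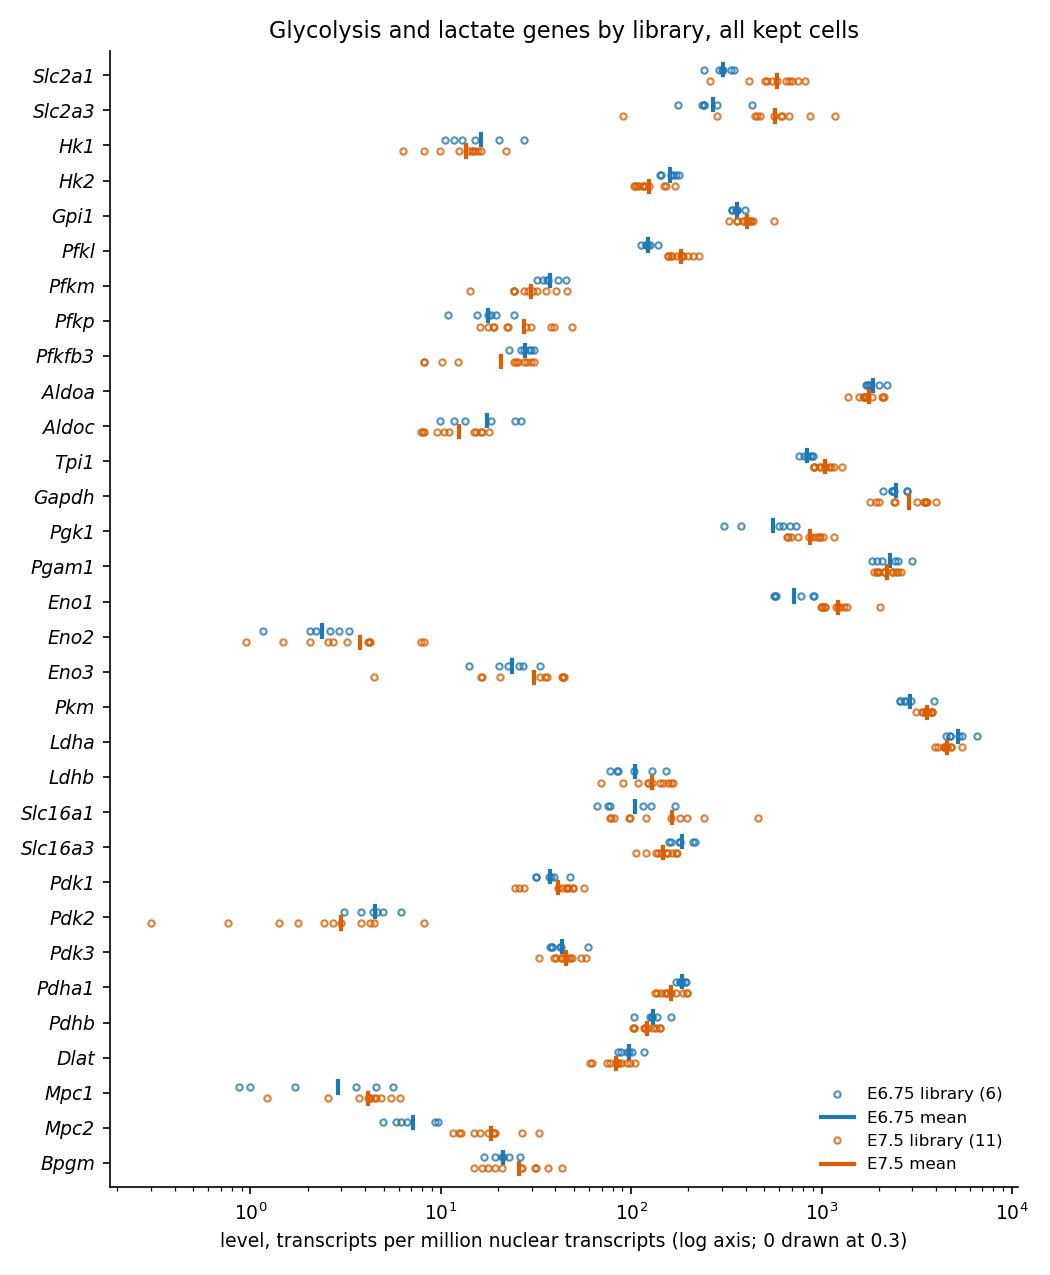
Level of each of the 32 genes in CPM (horizontal log axis, with 0 drawn at 0.3) in the 6 E6.75 libraries (blue circles) and the 11 tested E7.5 libraries (orange circles), with the mean of each stage as a bar. Pfkl, Tpi1, Eno1 and Mpc2 are separated between the stages, whereas Slc2a1 and Slc2a3 are higher at E7.5 on average with overlapping libraries.

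The promoters of 3 transporter genes and 1 enzyme gene on which the results turn are shown. They were chosen because they differ in how many copies they hold of a short motif, which hypoxia-inducible factors are known to bind in general. The RefSeq tables (GRCm38.p6) hold 46 promoters for 31 of the 32 genes, each running from 250 bases before to 50 after a transcript start, and Slc2a3 is not among them. Capitals mark ACGTG or GCGTG on either strand, that is also CACGT or CACGC, and CACGTG holds ACGTG on both strands. ACGTG was found in 20 of the 46 promoters (43.5%) and in 6447 of all 32851 promoters (19.6%), and GCGTG in 25 (54.3%) and 10639 (32.4%). Some promoters of 1 gene overlap, and counted by gene 17 of 31 held ACGTG and 20 of 31 GCGTG. Shares were not matched for base composition. The promoter of Slc2a1 (chr4:119108495-119108794, plus strand) holds 1 match of each, that of Slc16a3 (chr11:120948817-120949116, plus strand) 2 of ACGTG, that of Slc16a1 (chr3:104638414-104638713, plus strand) 3 and 2, and that of Tpi1 (chr6:124814109-124814408, minus strand) none.
Slc2a1: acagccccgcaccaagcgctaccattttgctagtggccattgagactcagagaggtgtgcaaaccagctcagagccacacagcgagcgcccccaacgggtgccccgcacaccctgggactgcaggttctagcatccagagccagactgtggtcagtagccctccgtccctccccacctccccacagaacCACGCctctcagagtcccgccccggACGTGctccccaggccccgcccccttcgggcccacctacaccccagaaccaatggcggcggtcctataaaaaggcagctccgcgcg
Slc16a3: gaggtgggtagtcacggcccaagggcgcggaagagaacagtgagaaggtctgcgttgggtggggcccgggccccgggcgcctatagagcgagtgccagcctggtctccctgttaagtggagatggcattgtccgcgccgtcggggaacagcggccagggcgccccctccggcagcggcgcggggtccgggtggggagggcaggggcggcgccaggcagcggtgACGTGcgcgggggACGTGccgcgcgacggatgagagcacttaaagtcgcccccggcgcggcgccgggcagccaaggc
Slc16a1: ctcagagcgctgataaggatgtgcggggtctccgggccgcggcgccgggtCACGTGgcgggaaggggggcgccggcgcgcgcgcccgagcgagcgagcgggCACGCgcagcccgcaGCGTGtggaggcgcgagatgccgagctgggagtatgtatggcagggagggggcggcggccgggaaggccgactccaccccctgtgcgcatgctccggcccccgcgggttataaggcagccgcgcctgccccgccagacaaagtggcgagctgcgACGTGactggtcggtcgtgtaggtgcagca
Tpi1: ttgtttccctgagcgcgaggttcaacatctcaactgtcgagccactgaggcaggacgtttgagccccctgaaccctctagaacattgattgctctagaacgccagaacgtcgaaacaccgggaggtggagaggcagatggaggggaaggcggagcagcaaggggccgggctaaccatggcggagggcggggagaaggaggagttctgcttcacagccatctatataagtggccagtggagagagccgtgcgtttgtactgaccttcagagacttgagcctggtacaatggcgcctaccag
A match is only a run of letters in this window and says nothing of binding in these cells.

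Glucose uptake came first. Slc2a1, which encodes the widespread glucose transporter GLUT1, measured 302 ± 37.8 CPM at E6.75 (SD, n = 6; lowest 240, median 301, highest 347) and 585 ± 160 CPM at E7.5 (n = 11; 260, 581, 818). Only E7.5 replicate 9, at 260 CPM, lay within the E6.75 range. The log2 fold change was 0.87 (SE 0.162, adjusted p = 0.000205). Slc2a3 encodes GLUT3, a transporter with high affinity for glucose. It measured 268 ± 87.9 CPM at E6.75 (176, 241, 433) and 571 ± 288 CPM at E7.5 (90.1, 563, 1180), and the stages overlapped widely. Its log2 fold change was 0.92 (SE 0.320, adjusted p = 0.0245), and the call was lost without E6.75 replicate 2_12 (0.82, adjusted p = 0.0583). Leaving out the visceral endoderm-high and extraembryonic ectoderm-high cells gave 1.19 for Slc2a3 (adjusted p = 0.00112). The highest library, E7.5 replicate 12 at 1180 CPM, then held 115 CPM in Mesp1-positive and 656 CPM in Mesp1-negative cells. When each cell was thinned to 2000 transcripts, 40.6% ± 8.32 of cells held a Slc2a1 transcript at E6.75 and 56.7% ± 10.4 at E7.5, and without thinning 89.9% ± 2.76 and 92.6% ± 5.07 did.

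Of the hexokinases, Hk2 was lower at E7.5, with 160 ± 14.7 CPM at E6.75 and 124 ± 22.1 CPM at E7.5 (log2 fold change −0.46, SE 0.0990, adjusted p = 0.000772). Hk1, the other hexokinase listed, was not called (−0.20). The phosphofructokinase genes encode 3 subunits, named for liver, muscle and platelet. Pfkl rose from 123 ± 8.70 CPM (113 to 138) to 182 ± 23.0 CPM (156 to 227), with no overlap between the stages (log2 fold change 0.50, SE 0.0812, adjusted p = 4.72e-05). Pfkp was also higher (0.58, adjusted p = 0.0209) and Pfkm lower (−0.40, adjusted p = 0.0191). Pfkl transcripts made up 69.0% of those of the 3 subunits at E6.75 and 76.1% at E7.5. Pfkfb3 makes fructose 2,6-bisphosphate, the activator of phosphofructokinase, and was lower (−0.50, adjusted p = 0.0452). Its call was lost in 9 of 17 fits without 1 library: E6.75 replicate 1_10, 1_11, 2_9, 2_12 or 2_14 (adjusted p 0.0568 to 0.0816) or E7.5 replicate 1, 9, 11 or 12 (0.0668 to 0.144). That of Pfkp was lost in 4, without E6.75 replicate 1_10 (0.0504) or 2_14 (0.0511), or without E7.5 replicate 1 (0.0513) or 2 (0.0594). Pfkm was lost without E7.5 replicate 1 (0.0544). The E6.75 libraries carry numbers beginning with 1 or 2, whose meaning the labels do not give, and with only the 4 that begin with 2 the calls of Pfkm (0.0668), Pfkp (0.0746) and Pfkfb3 (0.0917) were lost.

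In the lower part of the pathway, Tpi1, the isomerase that interconverts the triose phosphates made by aldolase, measured 844 ± 51.9 CPM at E6.75 (764 to 897) and 1042 ± 117 CPM at E7.5 (916 to 1279). The stages did not overlap, although the change was small (log2 fold change 0.24, adjusted p = 0.00646). Eno1, the main enolase, measured 718 ± 168 CPM (562 to 916) and 1223 ± 298 CPM (996 to 2026), again without overlap (0.70, adjusted p = 0.000511). Pgk1, phosphoglycerate kinase, rose from 554 ± 172 CPM (307 to 734) to 871 ± 163 CPM (660 to 1161), with libraries of both stages between 660 and 734 (0.63, adjusted p = 0.00298). Pkm, pyruvate kinase, rose from 2913 ± 494 CPM to 3583 ± 207 CPM (0.26, adjusted p = 0.00734). E6.75 replicate 1_10, at 3884 CPM, lay above all E7.5 libraries for Pkm. The aldolases Aldoa (−0.14) and Aldoc (−0.43), Gpi1 (0.12), Gapdh (0.09), Pgam1 (−0.08), Eno3 (0.33) and Bpgm (0.34), whose enzyme makes 2,3-bisphosphoglycerate, did not pass the test.

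2 of these genes have near-identical copies that could take part of their reads. The count files list Eno1b beside Eno1 and Pgk1-rs7 beside Pgk1, and whether counting used strand is not given in the sources used here. Eno1b held 34.4% ± 4.50 of the summed Eno1 and Eno1b transcripts at E6.75 and 39.3% ± 3.45 at E7.5, and the sum was 1107 ± 309 CPM and 2022 ± 520 CPM. Pgk1-rs7 held 28.0% ± 5.76 and 34.4% ± 5.39 of its pair, whose sum was 778 ± 261 CPM and 1340 ± 289 CPM. Each sum was higher at E7.5, as each listed gene was, so the levels of Eno1 and Pgk1 alone are uncertain while the direction was shared by both copies. Aldoart1 held 0.775% and 1.25% of the Aldoa pair, and Pdha2 0.0517% and 0% of the Pdha1 pair.

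At the pyruvate branch point, lactate genes and mitochondrial entry genes changed by small amounts, apart from Mpc2. Ldha, the lactate dehydrogenase subunit that favours lactate formation, fell from 5208 ± 735 CPM to 4543 ± 401 CPM (log2 fold change −0.24, adjusted p = 0.00833), with overlapping libraries. Ldhb, the subunit associated with lactate use, was not called (0.26). Slc16a3 encodes MCT4, the exporter typical of strongly glycolytic cells, and fell from 185 ± 24.2 CPM (159 to 216) to 147 ± 21.3 CPM (106 to 175; −0.41, adjusted p = 0.00216). Slc16a1 encodes MCT1, which carries lactate and pyruvate either way. It measured 105 ± 39.6 CPM at E6.75 and 163 ± 114 CPM at E7.5 and was not called (0.38), with 465 CPM in E7.5 replicate 12. With visceral endoderm-high and extraembryonic ectoderm-high cells left out, that replicate held 124 CPM in Mesp1-positive and 113 CPM in Mesp1-negative cells. Of the genes that route pyruvate into mitochondria, Mpc2, the partner of Mpc1, rose from 7.11 ± 1.95 CPM (4.96 to 9.66) to 18.4 ± 6.36 CPM (11.6 to 32.7) without overlap (1.15, SE 0.193, adjusted p = 7.67e-05). The fit with thinned cells did not test Mpc2. The pyruvate dehydrogenase subunits Pdha1 (−0.22, adjusted p = 0.0214) and Dlat (−0.27, adjusted p = 0.0291) were slightly lower, while Pdhb (−0.17) and the kinases Pdk1 (0.16) and Pdk3 (0.07) were not called. Dlat was lost without E6.75 replicate 1_10 (0.0805) or 1_11 (0.0554), or without E7.5 replicate 2 (0.0505), and Pdha1 turned to 0.16 when cells were thinned. With only the 4 E6.75 libraries whose number begins with 2 both calls were lost (Pdha1 0.0697, Dlat 0.148).

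To compare the stages within 1 kind of cell, cells with a Sox2 transcript and none of T, Mesp1 or Foxa2 were summed. Sox2 marks epiblast and its ectodermal descendants. The test held 6 E6.75 libraries and the 3 E7.5 libraries with at least 5 such cells, and called 911 of 9114 genes (10.00%). Of 28 pathway genes tested, 7 were higher at E7.5 and 1 lower, with a median log2 fold change of 0.22 against 0.01 for all genes. Of the 2279 tested genes with the highest mean level 19.5% were called, and 7 of the 18 pathway genes among them. Slc2a1 measured 332 ± 45.2 CPM at E6.75 (n = 6; 268, 326, 408) and 829 ± 231 CPM at E7.5 (n = 6 libraries with at least 3 such cells; 657, 742, 1283), without overlap. Its log2 fold change was 1.13 (SE 0.135, adjusted p = 0.00011). Slc2a3 measured 175 ± 87.5 CPM (108, 145, 350) and 514 ± 189 CPM (298, 484, 816), with slight overlap, and its log2 fold change was 1.75 (SE 0.288, adjusted p = 0.00144). These calls for both glucose transporters were kept under each alternative run, including each fit without 1 library.

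The remaining calls in Sox2-only cells were weaker and several hung on 1 of the 3 E7.5 libraries. Eno1 was higher (log2 fold change 0.85, adjusted p = 0.0115), but not without E7.5 replicate 3 (0.0569) or 7 (0.0729). Pfkl was higher (0.67, adjusted p = 0.00613), but not without replicate 4 (0.0601). Tpi1 (0.46, adjusted p = 0.0181) was lost without replicate 3 (0.118) or 4 (0.111). Ldhb (0.76, adjusted p = 0.0223) was lost without replicate 3 (0.0994), 4 (0.107) or 7 (0.0525). Eno3, the muscle-type enolase (0.95, adjusted p = 0.0449), was lost without E6.75 replicate 1_10, 1_11 or 2_12 (0.0594 to 0.0681) or E7.5 replicate 3 (0.175), 4 (0.242) or 7 (0.0531). Pdha1 (−0.52, adjusted p = 0.0419) was lost without E6.75 replicate 1_10, 1_11, 2_9, 2_12 or 2_13 (0.0594 to 0.0663) or E7.5 replicate 3 (0.209) or 4 (0.211), and it turned to 0.12 when cells were thinned. Tpi1 lost its call under thinning (0.30, adjusted p = 0.412), and Eno3 (0.0874) and Pdha1 (0.0655) with only the 4 E6.75 libraries whose number begins with 2. Ldha (−0.19, adjusted p = 0.356), Pkm (0.30, adjusted p = 0.209) and Pgk1 (0.48, adjusted p = 0.218) were not called. Neither were Hk2 (−0.15, adjusted p = 0.648) and Slc16a3 (0.19, adjusted p = 0.474), whose estimate was positive here and negative across all kept cells for Slc16a3.

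Within E7.5, cells with a Sox2 transcript had higher levels of pathway genes from hexokinase to lactate export than cells without one. The gate split each library, and the library was a block in the fit. In 10 libraries, 182 Sox2-positive cells (median depth 33324) and 212 Sox2-negative cells (27113) were compared, and 574 of 5786 genes were called (9.92%; 5.18% higher and 4.74% lower). Of 25 pathway genes tested, 12 were higher and none lower. At an unadjusted p under 0.05 there were 16, all higher, but the share of all genes at that level was not counted. The median log2 fold change of the 25 was 0.20 against −0.01 for all genes. Of the 1447 tested genes with the highest mean level 12.9% were called, and 10 of the 16 pathway genes among them, with 2 more below that level. Without the library as a block 4 were called. With each cell thinned to 2000 transcripts 2 of the 11 then tested were called, of which only Pkm was among the 12. The 32 genes together summed to 22170 ± 1176 CPM in Sox2-positive cells and 19599 ± 1602 CPM in Sox2-negative cells, and the sum was higher in 8 of 10 libraries.

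Hk2 had one of the clearest differences between the Sox2 gates. It measured 149 ± 44.2 CPM in Sox2-positive cells (n = 10; 116, 127, 251) and 98.4 ± 18.7 CPM in negative cells (73.7, 99.2, 132), and was higher in 10 of 10 libraries (log2 fold change 0.56, SE 0.119, adjusted p = 0.00245). The ranges overlapped between 116 and 132 CPM. Ldhb measured 166 ± 40.0 CPM (106, 161, 251) and 108 ± 32.9 CPM (64.8, 109, 156), and was higher in 8 of 10 (0.69, SE 0.139, adjusted p = 0.00158). Both calls were kept in each of the 18 alternatives that tested them, and the fit with thinned cells did not test them. Slc2a1 measured 658 ± 99.4 CPM (503, 674, 811) and 488 ± 153 CPM (189, 464, 706), higher in 9 of 10 (0.36, SE 0.0998, adjusted p = 0.0227). The Slc2a1 call was lost without replicate 3 (0.0594) or with cells thinned (0.50, adjusted p = 0.0613), and with no cells left out it was 0.16 (adjusted p = 0.262). Slc2a3 was not called between these gates (0.25, adjusted p = 0.346).

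Further genes along the pathway were higher in Sox2-positive cells, by log2 fold changes of 0.15 to 0.82. Pkm measured 3770 ± 314 CPM and 3348 ± 281 CPM, higher in 10 of 10 libraries (log2 fold change 0.17, adjusted p = 7.51e-05), and Tpi1 1141 ± 129 CPM and 948 ± 155 CPM, higher in 9 of 10 (0.27, adjusted p = 0.000422). Gapdh, glyceraldehyde 3-phosphate dehydrogenase (0.19, adjusted p = 0.000485), Pgk1 (0.34, adjusted p = 0.00448) and Ldha (0.15, adjusted p = 0.00147) were also higher. With cells thinned, Pkm kept its call (0.22, adjusted p = 0.0468) and Tpi1 (0.21, 0.389), Gapdh (0.19, 0.252), Pgk1 (0.30, 0.252) and Ldha (0.11, 0.377) did not. Gpi1, the isomerase after hexokinase (0.23, adjusted p = 0.0251), was lost without replicate 1 (0.0533), 2 (0.0745), 3 (0.0892), 4 (0.0650) or 10 (0.0560), and Pfkm (0.70, adjusted p = 0.0251) without replicate 1 (0.0785) or 4 (0.0633). The lactate exporter Slc16a3 measured 162 ± 23.4 CPM and 107 ± 34.0 CPM, higher in 9 of 10 (0.51, adjusted p = 0.0228), and was lost without replicate 1 (0.0597), 3 (0.0853) or 4 (0.0661). Pdk1, the kinase that holds pyruvate dehydrogenase inactive, measured 51.2 ± 15.0 CPM and 27.2 ± 14.1 CPM, higher in 9 of 10 (0.82, adjusted p = 0.0162). Not called were Pfkl (0.27), Aldoa (0.16), Pgam1 (0.09), Eno1 (0.09), Eno3 (0.05), Slc16a1 (−0.16), Pdk3 (0.16), Pdha1 (−0.10), Pdhb (0.08), Dlat (0.20), Pfkfb3 (0.45) and Bpgm (−0.08).

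Cell types differed between these gates as well. 6 epiblast and ectoderm markers summed to 1133 CPM on average in Sox2-positive and 364 CPM in Sox2-negative cells, 5 mesoderm markers to 173 and 525 CPM, and 3 endothelial markers to 30.5 and 197 CPM. The first list includes Sox2 itself. Their part in the pathway differences was not tested. In the exclusive classes described below, the pathway genes summed at E7.5 to 22171 ± 1551 CPM with Sox2 alone (n = 6). The sum was 22054 ± 1467 CPM with T but neither Mesp1 nor Foxa2 (n = 10). With Foxa2 but not Mesp1 it was 21771 ± 1695 CPM (n = 7). With Mesp1 but not Foxa2 it was 19418 ± 1564 CPM (n = 11). Apart from the first, these classes were not split by Sox2, and differences between the sums were not tested.

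Cells with a transcript of Mesp1, the transcription factor gene of nascent mesoderm, had lower levels of glucose transporters, lactate transporters and several enzymes at E7.5. In 11 libraries, 135 Mesp1-positive cells (median depth 38370) and 273 Mesp1-negative cells (25443) gave 405 called genes of 5718 (7.08%; 3.24% higher and 3.85% lower). Of 24 pathway genes tested, 12 were lower and none higher. At an unadjusted p under 0.05 there were 16 lower and 2 higher, but the share of all genes at that level was not counted. The median log2 fold change of the 24 was −0.19 against 0.01 for all genes. Of the 1430 tested genes with the highest mean level 8.88% were called, and 9 of the 16 pathway genes among them, with 3 more below that level. Without the library as a block 5 were called, and with each cell thinned 1 of the 10 then tested (Slc2a1, −1.10). The 32 genes summed to 19330 ± 1631 CPM in Mesp1-positive cells and 22152 ± 956 CPM in the rest, lower in 11 of 11 libraries. The Sox2 and Mesp1 gates divide the same cells of the same libraries, so their values are given side by side and neither supports the other.

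**Figure D2:**
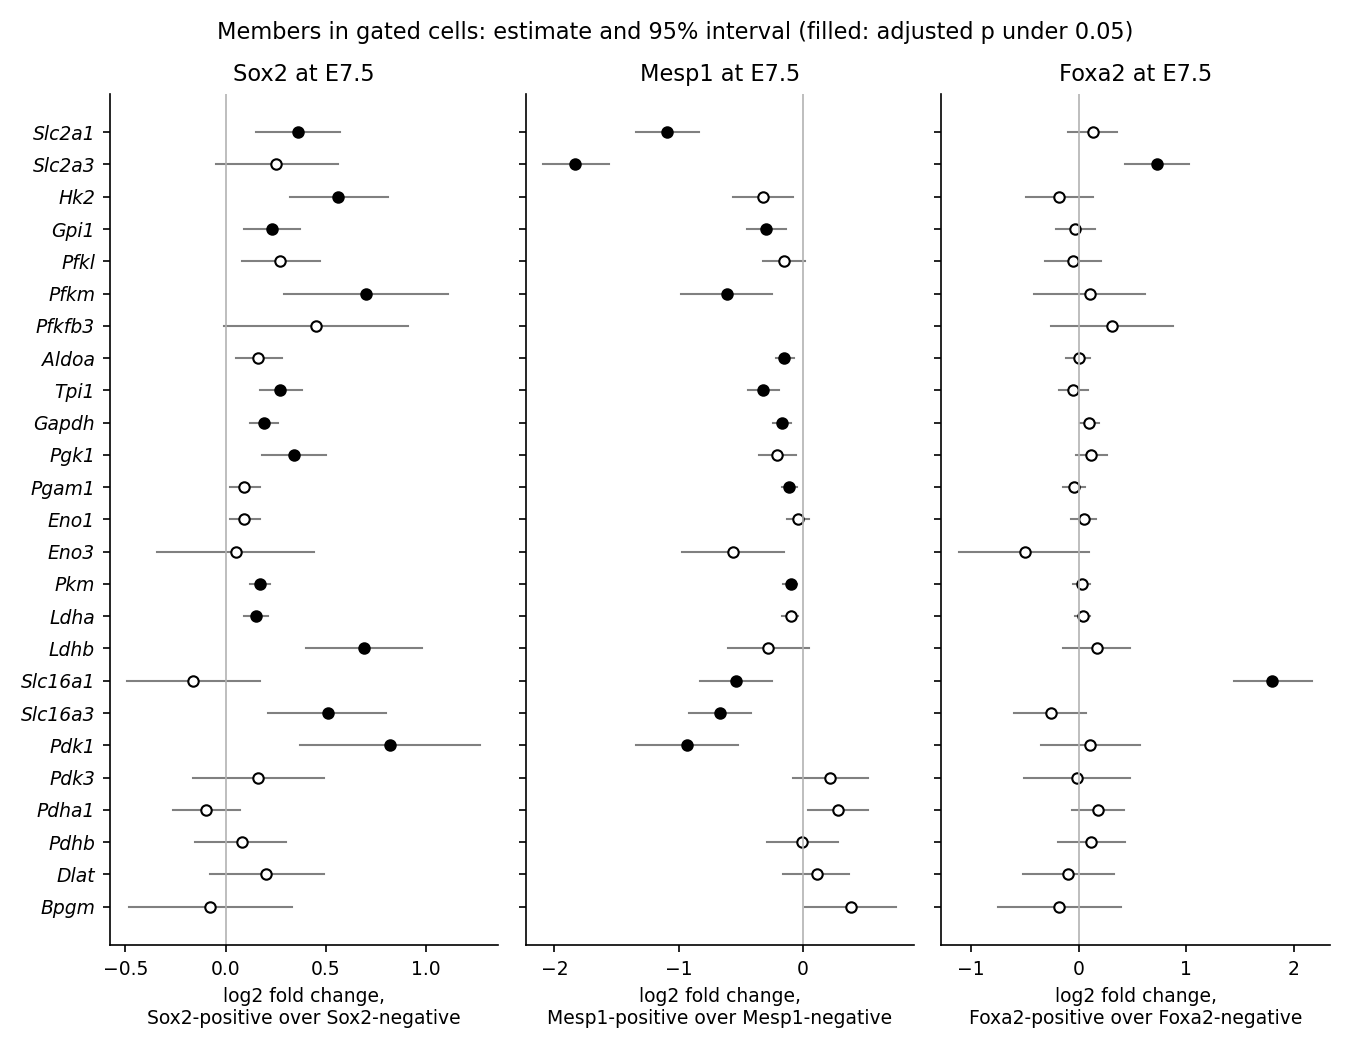
Log2 fold change of each tested pathway gene between E7.5 cells with and without a transcript of Sox2, Mesp1 or Foxa2 (points), with its 95% interval (lines); filled points have an adjusted p under 0.05 (limma voom). All 12 filled Sox2 points lie right of 0 and all 12 filled Mesp1 points left of it, and the 2 filled Foxa2 points are Slc2a3 and Slc16a1.

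Glucose transporters showed the widest differences of the tested pathway genes. Slc2a3 measured 186 ± 87.9 CPM in Mesp1-positive cells (n = 11; 93.8, 146, 367) and 659 ± 263 CPM in Mesp1-negative cells (176, 656, 1073). It was lower in the positive cells in 11 of 11 libraries, with a log2 fold change of −1.83 (SE 0.128, adjusted p = 2.09e-09), that is 0.282 times the level. Slc2a1 measured 321 ± 118 CPM (90.7, 342, 566) and 701 ± 208 CPM (211, 736, 932), with a log2 fold change of −1.09 (SE 0.120, adjusted p = 2.09e-06). It was lower in 10 of 11 libraries, the other being replicate 9 with 267 CPM in positive and 211 CPM in negative cells. That negative gate held only 5 cells with 28387 transcripts in all.

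Both lactate transporters were lower in Mesp1-positive cells as well. Slc16a3 measured 105 ± 33.2 CPM in Mesp1-positive cells (56.3, 100, 159) and 164 ± 26.7 CPM in negative cells (99.2, 169, 197), lower in 9 of 11 libraries (log2 fold change −0.67, SE 0.121, adjusted p = 0.000687). Slc16a1 measured 91.0 ± 34.5 CPM and 126 ± 58.7 CPM (−0.54, adjusted p = 0.0158). That call was lost without replicate 2 (0.0645) or 7 (0.0548), or without the library as a block (−0.40, adjusted p = 0.464). The Mesp1-negative cells included Foxa2-positive ones, whose Slc16a1 was higher, as given below. Pdk1 measured 23.4 ± 11.7 CPM (8.14, 21.8, 43.7) and 47.0 ± 17.6 CPM (0, 51.7, 61.0), lower in 10 of 11 (−0.93, adjusted p = 0.00363). The 0 was in replicate 9, whose Mesp1-negative gate held 5 cells. The 4 printed promoters were chosen because they differ in motif matches, so they are not set against these changes. A link between motif and level was not tested. The calls of Slc2a1, Slc2a3, Slc16a3 and Pdk1 were kept in every alternative that tested them, and of the 4 the thinned fit tested Slc2a1 alone.

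**Figure D3:**
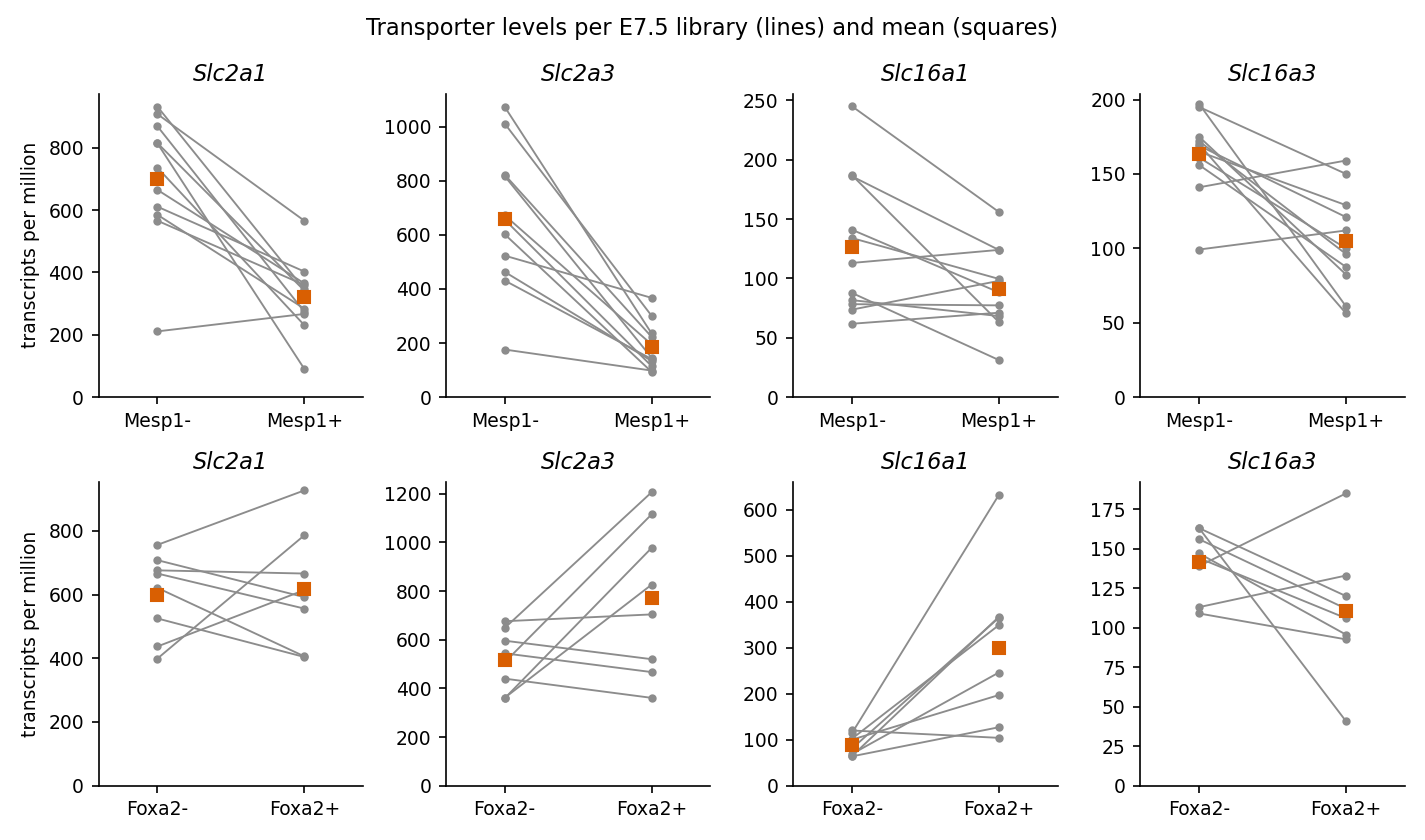
Levels of the glucose transporters Slc2a1 and Slc2a3 and the monocarboxylate transporters Slc16a1 and Slc16a3 in CPM (vertical axis, from 0) in Mesp1-negative and Mesp1-positive cells (upper row, 11 libraries) and Foxa2-negative and Foxa2-positive cells (lower row, 8 libraries) at E7.5; each grey line is 1 library and squares are means. Slc2a3 falls in all 11 Mesp1 pairs, and Slc16a1 rises in 7 of 8 Foxa2 pairs.

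Several enzymes of the pathway were lower in Mesp1-positive cells, most of them by small amounts. Tpi1 measured 896 ± 143 CPM and 1131 ± 145 CPM, lower in 11 of 11 libraries (log2 fold change −0.32, adjusted p = 0.0011). Gapdh (−0.17, adjusted p = 0.00268), Aldoa, the main aldolase (−0.15, adjusted p = 0.0161), and Pkm (−0.10, adjusted p = 0.017) were also lower. With cells thinned, all 4 of these calls were lost, and the log2 fold change was −0.13 for Tpi1, −0.01 for Gapdh, −0.04 for Aldoa and 0.00 for Pkm. Gapdh, Aldoa and Pkm were also lost without the library as a block (adjusted p 0.916, 0.647 and 0.296), and Pkm with a gate of at least 2 transcripts (0.0545) or with no cells left out (0.132). Gpi1 (−0.30, adjusted p = 0.0165) was lost without replicate 2 (0.0997). Pgam1, phosphoglycerate mutase (−0.11, adjusted p = 0.0262), was lost without replicate 2 (0.145), 3 (0.0573) or 8 (0.0536), and was −0.01 when cells were thinned (0.969). Pfkm (−0.61, adjusted p = 0.0333) was lost without replicate 2 (0.105), or without 3, 4, 6, 7, 8, 10 or 11 (0.0568 to 0.0756). Not called were Hk2 (−0.32, adjusted p = 0.108), Pgk1 (−0.21, adjusted p = 0.0758), Ldha (−0.10, adjusted p = 0.0536), Ldhb (−0.28, adjusted p = 0.367), Pfkl (−0.15), Eno1 (−0.04), Eno3 (−0.56), Pdk3 (0.22), Pdhb (−0.01), Dlat (0.11), Pdha1 (0.28, adjusted p = 0.177) and Bpgm (0.39).

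Mesp1-negative cells at E7.5 can be ectoderm, streak or endoderm, so Mesp1-positive cells were also set against Mesp1-negative cells among T-positive cells only, an alternative chosen after seeing the data. T marks the streak and the mesoderm leaving it. There 6 of the 12 calls remained: Slc2a1 (−1.12), Slc2a3 (−1.94), Slc16a1 (−0.83), Slc16a3 (−0.61), Pdk1 (−0.85) and Tpi1 (−0.27). The calls of 6 enzymes did not remain, with log2 fold changes of −0.23 for Gpi1, −0.58 for Pfkm, −0.07 for Aldoa, −0.12 for Gapdh, −0.09 for Pgam1 and −0.10 for Pkm (adjusted p 0.162 to 0.623). In the undivided gates mesoderm markers summed to 779 ± 204 CPM in Mesp1-positive and 110 ± 94.3 CPM in negative cells, epiblast markers to 478 ± 134 and 984 ± 317 CPM, and blood markers to 3.09 ± 3.36 and 38.4 ± 74.7 CPM. The mesoderm list includes Mesp1 itself. Visceral endoderm markers summed to 185 ± 62.5 and 223 ± 86.2 CPM (113 to 335 and 122 to 369), with 3 and 1 of the 12 markers at 0. The part of these cell types was not tested.

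Foxa2 marks definitive endoderm and axial mesoderm in these embryos, and also visceral endoderm. In 8 E7.5 libraries, 49 Foxa2-positive cells (median depth 31524) and 309 Foxa2-negative cells (29943) gave 123 called genes of 6291 (1.96%). Of 25 pathway genes tested, 2 were higher, both of them transporters, and none was lower, with a median log2 fold change of 0.04 against 0.02 for all genes. Slc16a1 measured 298 ± 170 CPM in Foxa2-positive cells (n = 8; 104, 298, 632) and 89.2 ± 22.7 CPM in negative cells (63.7, 90.4, 120). It was higher in 7 of 8 libraries, the other being replicate 12 with 104 against 120 CPM. The Foxa2-positive gates were small, with 3 cells in replicates 6 and 11 and 4 in replicates 3, 4 and 12. The highest Slc16a1 level, 632 CPM, came from the 3 cells of replicate 11. The log2 fold change was 1.80 (SE 0.177, adjusted p = 1.10e-06), kept in each of 15 alternatives that tested it. The fit with thinned cells did not test Slc16a1. Slc2a3 measured 772 ± 312 CPM (361, 765, 1206) and 516 ± 122 CPM (359, 525, 676), higher in 5 of 8 libraries, with wide overlap. Its log2 fold change of 0.73 (SE 0.143, adjusted p = 0.00568) lost its call without replicate 2 (0.58, adjusted p = 0.0562) or 7 (0.67, adjusted p = 0.0520), without the library as a block (0.63, adjusted p = 0.295), or with cells thinned (0.46, adjusted p = 0.661).

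The other transporter of each pair did not pass the test in Foxa2-positive cells. Slc2a1 had a log2 fold change of 0.13 (95% interval −0.10 to 0.36, adjusted p = 0.755) and Slc16a3 of −0.26 (−0.60 to 0.07, adjusted p = 0.590). Slc16a3 made up 33.7% ± 20.8 of the Slc16a1 and Slc16a3 transcripts in the E7.5 Foxa2 class, against 51.2% over all kept E7.5 cells. All kept cells include the visceral endoderm-high and extraembryonic ectoderm-high cells, which the class leaves out. Emb encodes embigin, which brings monocarboxylate transporters to the cell surface, and was higher with Slc16a1 (1.35, adjusted p = 3.71e-07). Visceral endoderm-high cells of E6.75 also held much Slc16a1 and Slc2a3, at 1219 and 2133 CPM on average. The 12 markers of that tissue summed to 274 ± 102 CPM in Foxa2-positive cells (148 to 408) and 208 ± 60.8 CPM in negative cells (123 to 323), with 2 of 12 at 0 in each. Definitive endoderm and axial markers summed to 633 ± 371 CPM and 18.9 ± 15.2 CPM. The part of remaining visceral endoderm in these values was not tested.

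Cells with T at E7.5 (267, median depth 33325) and without it (141, median depth 21640) differed in few genes, 90 of 5601 (1.61%), and in 1 of 23 pathway genes. Slc2a1 measured 452 ± 161 CPM in T-positive cells (n = 11; 200, 476, 774) and 685 ± 215 CPM in T-negative cells (230, 696, 977), lower in 10 of 11 libraries (log2 fold change −0.58, SE 0.124, adjusted p = 0.0127, with 0.0786 without the library as a block and 0.200 with cells thinned). Slc16a3 was near the threshold (−0.49, adjusted p = 0.0584), and Slc2a3 (−0.04) and Slc16a1 (0.03) had estimates near 0. The smallest T-negative gate, that of replicate 9, held 3 cells with 13025 transcripts in all.

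At E6.75 none of the 4 gates gave a called pathway gene under limma voom, out of 29 tested in each. T called 343 of 9604 genes (3.57%), Mesp1 139 of 9650 (1.44%), Foxa2 57 of 9505 (0.600%) and Sox2 19 of 9194 (0.207%). At an unadjusted p under 0.05 there were 6 pathway genes for T, 8 for Foxa2, 2 for Sox2 and 1 for Mesp1. The share of all genes at that level was not counted. For T, the nearest were Pgk1 (0.20, adjusted p = 0.0589), Hk2 (0.23, adjusted p = 0.081) and Slc2a3 (0.36, adjusted p = 0.0818). For Foxa2 the nearest was Slc2a1, at 251 ± 52.9 CPM in positive and 317 ± 34.7 CPM in negative cells (−0.34, adjusted p = 0.0643). For Mesp1, which only 3 libraries allowed, Slc2a3 had a log2 fold change of 0.12 (95% interval −0.12 to 0.36) and Slc2a1 of −0.21 (−0.48 to 0.06), and the nearest was Ldhb (−0.47, adjusted p = 0.119). The Mesp1 intervals at E6.75 do not reach the E7.5 estimates of these transporters, but the difference between stages was not tested for Mesp1 or Foxa2. With no cells left out, 2 to 4 pathway genes were called in each E6.75 gate, and the cells then put back included the 34 visceral endoderm-high cells.

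The difference between Sox2 gates was itself compared between the stages. Of 7383 genes, 206 differed (2.79%), and 5 of 28 pathway genes did, all with a more positive difference at E7.5. They were Slc16a3 (0.62, adjusted p = 0.0377), Tpi1 (0.30, adjusted p = 0.0169), Gapdh (0.19, adjusted p = 0.0401), Pkm (0.19, adjusted p = 0.0324) and Ldha (0.17, adjusted p = 0.0245), in log2 units. None was kept in all 6 fits without 1 E6.75 library. Tpi1 was lost without replicate 1_11 (0.0639) or 2_14 (0.0541), and Ldha without 1_10 (0.0556) or 1_11 (0.0920). Gapdh was lost without each but 2_13 (0.0563 to 0.0939), and Pkm and Slc16a3 without 1_10, 1_11, 2_14 or 2_9 (0.0576 to 0.106 and 0.0514 to 0.0879). Slc2a1 (0.25, 95% interval −0.05 to 0.56) and Slc2a3 (0.30, −0.18 to 0.78) did not pass. Depth differed more between the gates at E6.75, with medians of 49689 transcripts in Sox2-positive and 11023 in Sox2-negative cells. With each cell thinned to 2000 transcripts Tpi1 stood at −0.05 (adjusted p = 0.952), Ldha at 0.06 (0.819), Gapdh at 0.27 and Pkm at 0.26 (0.186 each), so all 4 calls were lost, and Slc16a3 was not tested. For T, 44 of 8201 genes differed between stages (0.537%), and of 29 pathway genes only Slc16a3 did (−0.59, adjusted p = 0.0493), a call lost in all 6 fits without 1 E6.75 library (0.0644 to 0.151).

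4 exclusive classes show where each transporter was high: cells with Sox2 alone, with T but neither Mesp1 nor Foxa2, with Mesp1 but not Foxa2, and with Foxa2 but not Mesp1. These levels are a description without a test. At E6.75 Slc2a1 had class means from 244 ± 64.7 CPM (Mesp1, n = 3) through 246 ± 50.5 (Foxa2, n = 6) and 309 ± 55.2 (T) to 332 ± 45.2 (Sox2). The first 2 and the last 2 differed by less than their SDs, and the Foxa2 and T means by more than either SD. At E7.5 the order was 318 ± 114 CPM (Mesp1, n = 11), 677 ± 307 (T, n = 10), 718 ± 178 (Foxa2, n = 7) and 829 ± 231 (Sox2, n = 6). The Mesp1 class thus stood near its E6.75 level, while the means of the other 3 classes were above theirs.

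For Slc2a3, the E6.75 class means ran from 157 ± 34.5 CPM (Mesp1) to 230 ± 57.5 (T), and the E7.5 means were 180 ± 92.7 (Mesp1), 514 ± 189 (Sox2), 695 ± 382 (T) and 852 ± 338 CPM (Foxa2). Slc16a3 differed from both glucose transporters, since its Mesp1 class mean was 206 ± 14.8 CPM at E6.75 and 102 ± 35.1 CPM at E7.5 (range 190 to 220 and 56.3 to 159, without overlap), while its Sox2-only means were 177 ± 24.3 and 208 ± 49.4 CPM. Slc16a1 stood out in the Foxa2 class at E7.5, with 277 ± 137 CPM against 75.3 ± 18.6 CPM at E6.75. In the other E7.5 classes its means were 86.9 ± 28.5 (Mesp1), 88.9 ± 48.6 (T) and 104 ± 45.4 CPM (Sox2), differing by less than their SDs.

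**Figure D4:**
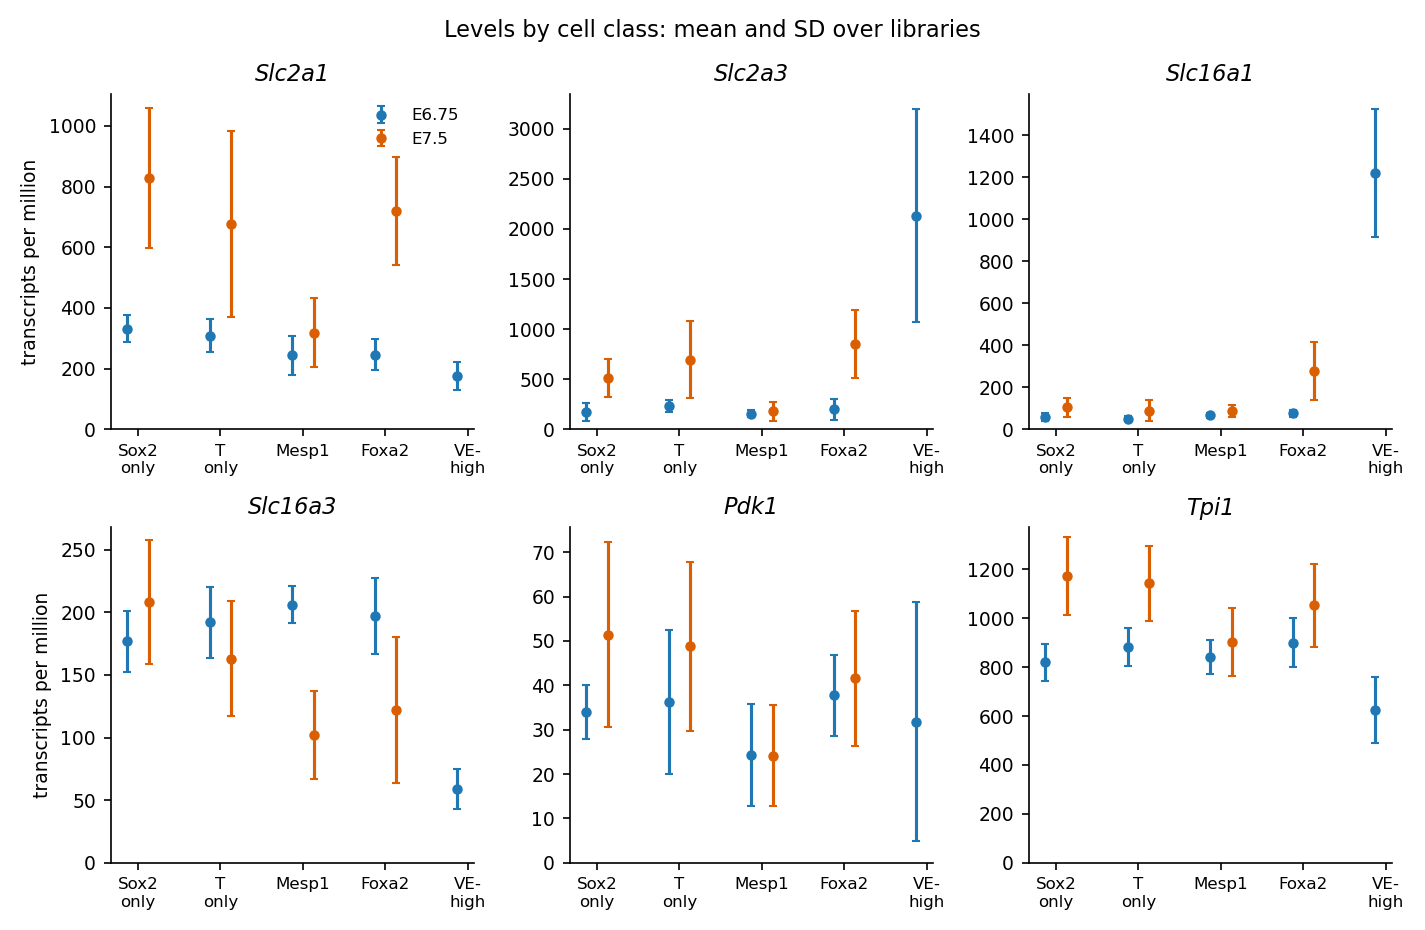
Mean and SD over libraries of Slc2a1, Slc2a3, Slc16a1, Slc16a3, Pdk1 and Tpi1 in CPM (vertical axes, from 0) in 4 exclusive cell classes and in visceral endoderm-high (VE-high) cells, at E6.75 (blue) and E7.5 (orange). In the Mesp1 class Slc2a1 and Slc2a3 sit near 300 CPM or lower at both stages, and the VE-high cells of E6.75 reach 2133 CPM for Slc2a3 and 1219 CPM for Slc16a1.

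The 34 visceral endoderm-high cells of E6.75 had a transporter pattern of their own. Slc2a3 measured 2133 ± 1064 CPM (n = 6; 924, 1960, 3774) and Slc16a1 1219 ± 305 CPM (749, 1240, 1631), each above every library of the 4 E6.75 classes. Slc16a3 measured 59.0 ± 15.7 CPM (42.0 to 78.6) and Ldha 3157 ± 387 CPM (2746 to 3836), each below every library of those classes. Slc2a1 measured 175 ± 46.8 CPM. The 32 genes summed to 14801 ± 1569 CPM, against 18955 ± 1742 CPM in Sox2-only cells.

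Genes around the pathway were read from further lists. At E7.5, a list of 30 further genes of glycolysis and pyruvate use had 6 tested and none called by limma voom for Sox2 or Mesp1, with 0 and 1 at an unadjusted p under 0.05. The 6 tested genes of the pentose phosphate branch, which makes NADPH and ribose from glucose 6-phosphate, had none called for either. At an unadjusted p under 0.05 there were 1 and 0, a level not counted over all genes. Of all genes, limma voom called 9.92% for Sox2 and 7.08% for Mesp1. Of 12 tested genes of the hypoxia response, 4 were higher and 1 lower in Sox2-positive cells, with a median log2 fold change of 0.27. Of all genes 5.18% were higher and 4.74% lower there. Bnip3, a mitophagy receptor (0.57), Ddit4, an inhibitor of mTORC1 (0.93), and Egln1, an oxygen sensor (0.46), were among the higher ones, and P4ha1, a collagen prolyl hydroxylase subunit, was lower (−0.77). In Mesp1-positive cells 2 of 12 hypoxia response genes were lower, Bnip3 (−0.64) and Higd1a (−0.31), and none higher, beside 3.85% and 3.24% of all genes. In Foxa2-positive cells 2 of 13 were higher, Ddit4 (1.19) and Mxi1 (1.12), and none lower, beside 1.96% of all genes called. Mycn, the N-MYC gene, was the 1 regulator of 5 called for Sox2 at E7.5, beside 9.92% of all genes, and was higher (0.42). Between the stages, 7 of 17 tested hypoxia response genes were higher at E7.5 and none lower. Of all genes 21.6% were higher and 21.0% lower. The further glycolysis and pyruvate list had 2 of 11 higher and 3 lower. The pentose phosphate list had 1 of 6 higher and 2 lower, and the regulators 1 of 7 and 2. Mlxip was the higher regulator (0.28), and Myc (−0.80) and Mycn (−0.43) the lower ones. At E6.75 the T gate called 3 of 16 hypoxia response genes, all higher: Egln1 (0.44), Egln3 (0.60) and P4ha1 (0.99). It called Mycn as lower (−0.29), beside 3.57% of all genes called.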

How the data were processed

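Single-cell RNA sequencing of 18 libraries was used, 6 from E6.75 and 12 from E7.5 embryos as the labels group them. The deposited values were transcripts per gene and cell barcode that the authors had computed from molecular identifier counts with a correction for collisions among 4096 identifiers. They are expected transcript counts with no depth normalisation, as every nonzero value matched that formula to within 4.09e-12. The authors used bcl2fastq 2.17.1.14 and BWA 0.6.2-r126, per the submitters' processing notes. The genome build, annotation and use of strand are not given in the sources used here. Each file had 192 barcode columns, of which a library used 96. Barcodes name wells, so a barcode shared by libraries is not a shared cell.

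Values were rounded and summed per library or gate over cells with at least 2000 nuclear transcripts, leaving out 74 spike-ins and 22 mitochondrial genes. No doublet caller was run. A gate was at least 1 transcript of the marker against none, with at least 3 cells on each side per library. Sums were compared with limma 3.58.1 voom in R 4.3.3, with trimmed-mean scaling, an expression filter, the library as a block for gates, and Benjamini-Hochberg adjustment over all genes tested at 0.05. The design had named a quasi-likelihood count model for these tests and a second count model as an alternative. Neither gave any value reported here, and limma voom was used in their place. The fitting script was tested on simulated data. Levels and plots used Python 3.11.15, numpy 2.4.6, pandas 2.3.3 and matplotlib 3.10.9.

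Every gene past the threshold is named, with the other genes of its step. Alternatives changed the depth minimum, gate, filter, scaling, block and cells left out, thinned each cell to 2000 transcripts, left out each library in turn (for the interactions each E6.75 library), and for the stages kept only the 4 E6.75 libraries whose number begins with 2. The genes and lists were chosen with earlier results of these data known. Counting error and the spread between libraries limit precision. E7.5 replicate 5 had 0 kept cells and entered no test.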

Additional observations from a re-analysis of the deposited data

Results flagged for a closer look

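In 45 groups of 4 to 10 libraries, 3 had 1 library far from the others, where chance marks about 1 in 20 groups. Pkm in E6.75 replicate 1_10 stood at 3884 CPM and Pdk3 in the same library at 59.2 CPM. The log2 ratio of Slc2a1 between Sox2-positive and Sox2-negative cells was 1.89 in E7.5 replicate 8, a library of 15 kept cells.

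Differences between gates that themselves differed between stages, by the interaction in limma voom, were −0.59 for Slc16a3 by T, and 0.62 for Slc16a3, 0.30 for Tpi1, 0.19 for Gapdh, 0.19 for Pkm and 0.17 for Ldha by Sox2, in log2 units as E7.5 minus E6.75. None of the 6 was kept in every fit without 1 E6.75 library.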

How the results depend on the processing

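Of 57 calls of pathway genes, 15 were kept under every alternative that tested them. Among these, thinning did not test Mpc2 between stages over all cells. Nor did it test Hk2 and Ldhb for Sox2, Slc2a3, Slc16a3 and Pdk1 for Mesp1, or Slc16a1 for Foxa2 at E7.5. Of 1127 refits, 957 kept direction and side of the threshold, 166 lost the call and 4 turned direction. The latter came from thinning each cell to 2000 transcripts: Pkm 0.00 for Mesp1 at E7.5, Tpi1 −0.05 for Sox2 by stage, and Pdha1 0.12 in Sox2-only cells and 0.16 in all cells between stages.

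Thinning tests fewer genes by construction, and pathway genes called under it were 6 between stages (16 in the report), 4 in Sox2-only cells (8), 1 for Mesp1 (12), 2 for Sox2 (12), 0 for Foxa2 and 0 for T at E7.5, 1 for Sox2 by stage (5) and 0 for T by stage. Of the calls in the report these kept only Pkm for Sox2, only Slc2a1, Slc2a3 and Eno1 in Sox2-only cells, and none for Sox2 by stage. Without the replicate block the pathway genes called were 5 for Mesp1, 4 for Sox2, 1 for Foxa2 and 0 for T at E7.5, and 0 for each interaction. The library block pairs the gates of 1 library. No paired analysis was possible between stages because they share no library. With no cells left out they were 3 for Foxa2, 2 for Mesp1, 2 for Sox2 and 4 for T at E6.75, 2 for T at E7.5 and 1 for Sox2 by stage. A gate of 2 transcripts gave 1 for Foxa2 and 2 for T at E6.75, 2 for T at E7.5 and 9 for Sox2 by stage. Without the filter they were 4 for Foxa2, 1 for Mesp1, 1 for Sox2 and 3 for T at E6.75, 8 for Foxa2 and 2 for T at E7.5, and 2 for T by stage. For T at E7.5, libraries of at least 20 cells, a depth of 5000 and observed identifiers each gave 2, and observed identifiers gave 0 for T by stage. T-positive cells alone gave 6 for Mesp1. The last and the 20-cell limit were chosen after seeing the data.

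Without 1 library (1 E6.75 library for the interactions) the counts ran from 13 to 17 between stages, 3 to 8 in Sox2-only cells, 8 to 14 for Mesp1, 9 to 14 for Sox2, 1 to 2 for Foxa2 and 1 to 2 for T at E7.5, 0 to 2 for Foxa2, 0 for Mesp1 and Sox2 and 0 to 2 for T at E6.75, 0 to 7 for Sox2 by stage and 0 for T by stage.

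Of all genes, thinning called 639 between stages (4264 in the report), 96 in Sox2-only cells (911), 4, 7, 46 and 11 for Foxa2, Mesp1, Sox2 and T at E6.75 (57, 139, 19 and 343), 8, 7, 13 and 0 at E7.5 (123, 405, 574 and 90), 25 for Sox2 by stage (206) and 1 for T by stage (44). Without the filter these were 12666, 2795, 1537, 1188, 8293 and 566 at E6.75, 9476 for Foxa2, 745 for Mesp1 and 5212 for T at E7.5, 7891 and 6952. Most of the added calls were of genes below the filter, as in 8307 of 12666 between stages. Without the replicate block they were 2, 19, 1 and 120 at E6.75, 19 for Foxa2 at E7.5, 43 and 0. With no cells left out they were 502 for Foxa2 and 427 for Sox2 at E6.75 and 204 for Foxa2 at E7.5. A depth of 5000 gave 9 for Sox2 at E6.75 and 140 for T at E7.5. A gate of 2 transcripts gave 164 for T at E7.5 and 321 for Sox2 by stage, libraries of 20 cells 142 for T at E7.5, and T-positive cells 224 for Mesp1. Without 1 library, taken as before, they ran from 3891 to 4235 between stages, 354 to 921 in Sox2-only cells, 17 to 107, 50 to 255, 8 to 29 and 189 to 394 for Foxa2, Mesp1, Sox2 and T at E6.75, 80 to 165, 312 to 481, 404 to 587 and 65 to 143 at E7.5, 127 to 236 for Sox2 by stage and 14 to 46 for T by stage. The cause of these shifts was not tested beyond what is said. The planned second count model was not run.

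Depth limits the rare genes. In the main fits, which used the filter, Eno2, Pdk2 and Mpc1 were tested in no comparison. Hk1, Pfkp, Aldoc and Mpc2 were not tested there in the Sox2, Mesp1, Foxa2 or T gates at E7.5.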
